A study of Homo sapiens with 6 samples.

Results

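Imprinted genes are described here in HAP1, an established human cell line that came from a leukaemic blood line, grows attached and is near-haploid, so that most chromosomes are present in a single copy. RNA was sequenced from 3 libraries of HAP1 cells with a knockout of DEGS1, the desaturase that turns dihydroceramide into ceramide, and from 3 libraries of wildtype HAP1 cells. Both genotypes were untreated and were collected 24 h after passage in medium with 5% serum. The labels do not say how the knockout was made, how many clones it stands for, or whether replicates were separate cultures, so the spread behind each p-value may be purely technical. The genes were chosen by name, with earlier results of these data known. They are 36 known imprinted human genes, of which 31 have a row among the 35238 symbols of the count table. H19, MEG3, MEG8, KCNQ1OT1 and HYMAI, all noncoding RNAs, matched no row, so their levels are not analysed here.

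An imprinted gene is read from the chromosome of 1 parent only, because a control region was methylated in the egg or in the sperm and keeps that mark in the cells of the body. At several loci genes of opposite parental expression sit side by side, such as paternal IGF2 and maternal H19, or paternal DLK1 and maternal MEG3. A cell with a single copy of a chromosome carries the imprint of 1 parent at each such locus. Read counts per gene do not show which parental chromosome was read, and neither methylation nor chromosome number was measured.

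Total counts ran from 19389644 to 27659835 in knockout libraries and from 17322756 to 28988522 in wildtype libraries. Levels are given as CPM, the usual depth-normalised count rate, on scaled library sizes. Every log2 fold change is knockout over wildtype and carries its standard error (SE). edgeR's quasi-likelihood test was run on 16954 genes, and "called" means a p under 0.05 after Benjamini-Hochberg adjustment over all of them. By that rule 4.46% of the tested genes were called, and in 20.8% the libraries of the genotypes did not overlap. DEGS1 stood at 8.93 ± 1.84 CPM in the knockout, against 108 ± 13.8 CPM in wildtype (SD, n = 3 each). The libraries numbered 2 stood apart in both genotypes. Replicate 2 was the highest or the lowest library in both genotypes at once for 49.5% of all tested genes, compared with 18.1% for replicate 1 and 16.8% for replicate 3. Among the 23 imprinted genes tested this held for 13 with replicate 2 (56.5%), 8 with replicate 3 (34.8%) and 4 with replicate 1 (17.4%). What the number marks is not stated, though the sample descriptions of both genotypes share a suffix for each replicate number. Values without both of these libraries, a setting chosen after seeing the data, are therefore given beside the results they change. In that setting 32.2% of all tested genes were called, so a call in it is common. Markers of other tissues were mixed. SPI1 and HBG1 of blood, LUM of fibroblasts and CGB5 of trophoblast had no count in any library, while others of the same lists were read: PTPRC of blood averaged 2.36 CPM in the knockout and 3.11 CPM in wildtype, and COL1A1 of fibroblasts 5.11 CPM in the knockout and 4.35 CPM in wildtype. In wildtype cells both averaged more CPM than IGF2 (2.48 CPM). The 4 hepatocyte markers summed to at most 0.205 CPM in the knockout and 0.161 CPM in wildtype. The 7 blood markers together gave 4.12 to 5.13 CPM in knockout libraries and 2.67 to 6.17 CPM in wildtype libraries, and the 5 fibroblast markers 8.75 to 10.9 CPM and 5.83 to 11 CPM in the same order. The 6 trophoblast markers gave 31.5 to 38.2 CPM in the knockout and 29.6 to 60.9 CPM in wildtype, nearly all from the endogenous retroviral envelope gene ERVW-1, and the 4 neuron markers 3.71 to 5.8 CPM and 3.23 to 5.3 CPM. None of these markers was called except the neuronal SNAP25, which rose to 1.00 CPM in the knockout, against 0.177 CPM in wildtype (log2 fold change 2.50, adjusted p by edgeR = 0.0127). The part of these markers in the results was not tested.

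Of the 31 imprinted genes with a row, 20 reached a mean of 1 CPM in at least 1 genotype, 6 had counts below that level, and 5 had no count in any of the 6 libraries. Over the whole table, which also holds pseudogenes, 42.7% of symbols reached 1 CPM. The list therefore ranged from one of the most abundant messages of these cells to genes with no read. Of 19 genes with a row that are known to be read from the paternal chromosome, 10 reached 1 CPM and 5 were at 0. Genes listed simply as maternally expressed, with no qualifier, were represented by CDKN1C and PHLDA2. The others of that kind on the list are among the noncoding RNAs without a row. A count of 0 allows up to 3 counts per library, or 0.109 to 0.161 CPM, for counting error only.

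**Figure D1:**
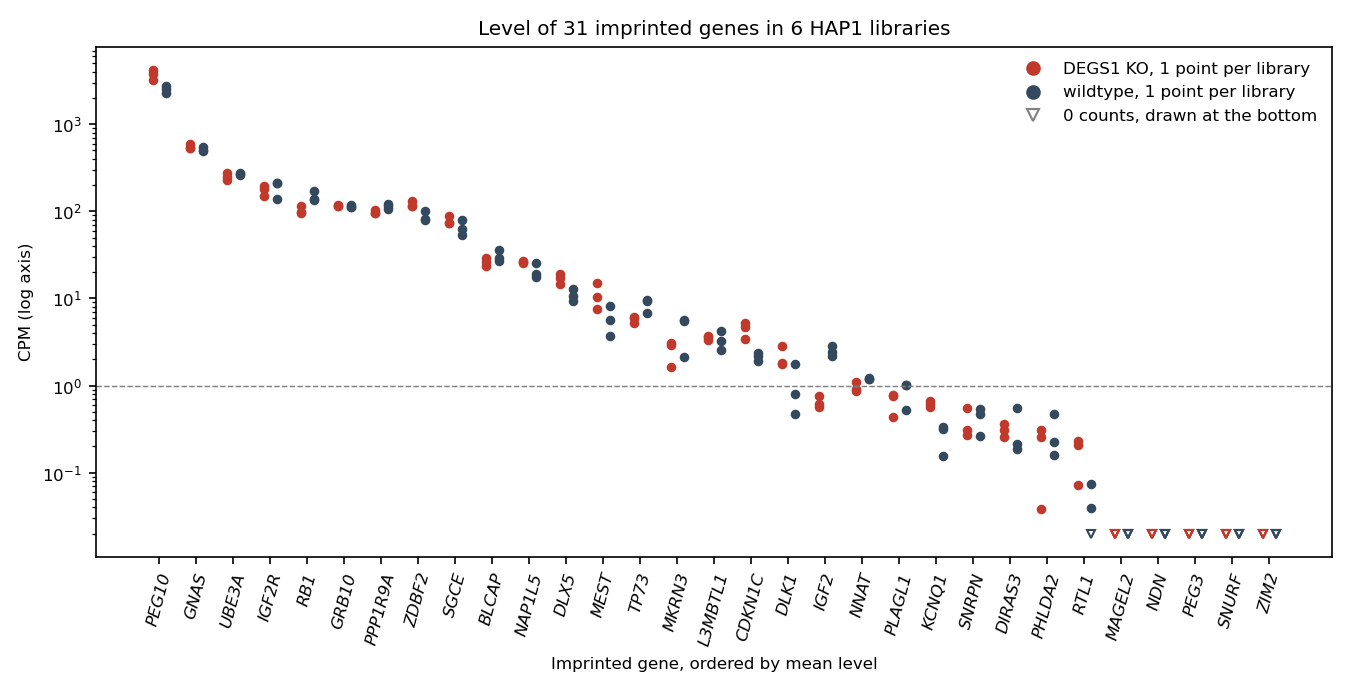
CPM (log axis) of the 31 imprinted genes with a row, ordered by mean level, with 1 point per library in DEGS1 knockout (red) and wildtype (dark) cells; open triangles mark 0 counts and the dashed line 1 CPM. PEG10 lies between 2260 and 4180 CPM in the 6 libraries, and MAGEL2, NDN, PEG3, SNURF and ZIM2 are at 0 in all 6.

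PEG10, a paternally expressed gene derived from a retrotransposon that is needed for placental growth in mice, was the most abundant imprinted gene. It had 3740, 4180 and 3210 CPM in knockout libraries, against 2510, 2760 and 2260 CPM in wildtype libraries. Every knockout library was above every wildtype library. PEG10 took 0.319% to 0.396% of all counts in the knockout, where it ranked 6 in each library, and 0.243% to 0.264% in wildtype, where it ranked between 6 and 12. Its log2 fold change of 0.57 (SE 0.16, adjusted p by edgeR = 0.0861) missed the threshold. It was called in 6 of 16 other settings, among them the fits without both libraries numbered 2 (log2 fold change 0.55, adjusted p by edgeR = 8.48e-05), under upper-quartile scaling (adjusted p = 0.0345) and with library size only (adjusted p = 0.0251).

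SGCE, which encodes epsilon-sarcoglycan and starts next to PEG10 on the opposite strand under the same paternal imprint, was lower by far. Per kilobase of transcript it reached 12.6 RPKM in the knockout and 10.4 RPKM in wildtype, while PEG10 reached 561 RPKM in the knockout and 379 RPKM in wildtype. PEG10 stood 41.5 to 47.7 times above SGCE per kilobase in knockout libraries and 32.9 to 39.9 times above it in wildtype libraries, so the ratio did not overlap between genotypes. The lengths are those of the longest listed transcript, 6618 bases for PEG10 and 6270 for SGCE. Which transcripts were made is not known, and the size of the ratio depends on this choice. SGCE itself had 74.4, 89.0 and 73.3 CPM in the knockout and 62.0, 79.4 and 53.6 CPM in wildtype, which overlap (log2 fold change 0.28, SE 0.15, adjusted p by edgeR = 0.378). Without both libraries numbered 2 it was called (0.35, adjusted p by edgeR = 0.00248). Farther along 7q21.3, PPP1R9A, which encodes the actin-binding neurabin and is maternal in some tissues, had 96.0, 103 and 96.1 CPM in the knockout and 116, 122 and 106 CPM in wildtype, lower in each knockout library (log2 fold change -0.22, SE 0.11, adjusted p by edgeR = 0.336, and 0.0404 without both libraries numbered 2). DLX5, a homeobox gene whose imprinting is contested, had 17.2, 19.1 and 14.6 CPM in the knockout, against 10.7, 13 and 9.37 CPM in wildtype. It was higher in each knockout library, with a log2 fold change of 0.62 (SE 0.17, adjusted p by edgeR = 0.0619, and 0.000643 without both libraries numbered 2). The genes between and around these were mixed: of the 10 tested neighbours of PEG10 outside the list 1 rose, the dynein chain gene DYNC1I1 (log2 fold change 0.74, SE 0.16), and their median log2 fold change was 0.05.

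Farther out on the same arm of chromosome 7 lies MEST, a paternally expressed hydrolase-like gene. It had 7.49, 15.1 and 10.4 CPM in the knockout and 3.66, 8.10 and 5.68 CPM in wildtype. Replicate 2 was highest in both genotypes and the groups overlapped (log2 fold change 0.92, SE 0.31, adjusted p by edgeR = 0.159, and 0.00373 without both libraries numbered 2). On the other arm lies GRB10, an adaptor that restrains insulin receptor signalling and is imprinted by isoform and tissue. It was nearly level, at 116 ± 1.12 CPM in the knockout and 114 ± 4.51 CPM in wildtype (SD, n = 3 each). Its log2 fold change was 0.02 (SE 0.10, adjusted p by edgeR = 0.929), turning to 0.00 under upper-quartile scaling and -0.03 with library size only.

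At 11p15.5 the growth factor gene IGF2 fell and the cell cycle inhibitor gene CDKN1C rose. IGF2, read from the paternal chromosome in most tissues, had 12, 15 and 21 reads in knockout libraries and 56, 65 and 53 reads in wildtype libraries, or 0.616, 0.574 and 0.765 CPM against 2.2, 2.41 and 2.84 CPM. The lowest wildtype library was well above the highest knockout library. The log2 fold change was -1.91 (SE 0.31, adjusted p by edgeR = 0.00337), and from summed counts the wildtype level was 3.73 times that of the knockout (95% exact binomial interval 2.70 to 5.25, counting error only). IGF2 was called in all 17 other settings, with log2 fold changes of -2.05 to -1.81 and adjusted p up to 0.0244. Its level was low even in wildtype, at 0.445 RPKM, and in a bulk sample fewer expressing cells and less RNA per cell cannot be told apart.

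CDKN1C, the maternally expressed inhibitor of cyclin-dependent kinases also called p57, had 5.18, 3.40 and 4.67 CPM in the knockout, against 2.16, 2.34 and 1.93 CPM in wildtype. The groups did not overlap. It averaged 4.42 ± 0.915 CPM in the knockout and 2.14 ± 0.206 CPM in wildtype (SD, n = 3 each), with a log2 fold change of 1.03 (SE 0.25, adjusted p by edgeR = 0.0399). The call was narrow, though the log2 fold change stayed between 0.92 and 1.26 in the 17 alternatives. It was lost without knockout replicate 1 (adjusted p = 0.178), knockout replicate 3 (0.188), wildtype replicate 1 (0.165) or wildtype replicate 3 (0.116), under upper-quartile scaling (0.0648), with library size only (0.0811), in limma voom (0.0571) and with chromosome medians removed (0.0569). It held without both libraries numbered 2 (log2 fold change 1.26, adjusted p by edgeR = 0.000145).

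KCNQ1, the potassium channel gene between IGF2 and CDKN1C, had 12, 15 and 18 reads in the knockout and 4, 9 and 6 reads in wildtype. All 3 knockout libraries were above all 3 wildtype libraries at these low counts, but the log2 fold change of 1.18 (SE 0.45, adjusted p by edgeR = 0.201) did not pass, and reached an adjusted p of 0.0471 without both libraries numbered 2. KCNQ1OT1 runs antisense inside KCNQ1, and since the strand setting of the counting is not given, their reads cannot be told apart. PHLDA2, a maternally expressed placental growth restrictor, had 6, 1 and 7 reads in the knockout and 12, 6 and 3 in wildtype, too few to be tested. The neighbours outside the list showed no such differences. Of the 10 tested genes nearest IGF2, none was called (edgeR), 3 had an unadjusted p under 0.05, and their log2 fold changes ran from -0.29 to 0.31 around a median of 0.21.

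At 14q32, DLK1, a paternally expressed inhibitor of adipocyte differentiation related to Notch ligands, had 35, 74 and 49 reads in the knockout and 12, 47 and 15 in wildtype. That was 1.80, 2.83 and 1.79 CPM in the knockout, against 0.472, 1.75 and 0.803 CPM in wildtype, just without overlap. Replicate 2 was highest in both genotypes. The log2 fold change of 1.07 (SE 0.44, adjusted p by edgeR = 0.238) was called without both libraries numbered 2 (1.52, adjusted p = 0.00259) and without wildtype replicate 2 alone (1.78, adjusted p = 0.00571). RTL1, the paternal retrotransposon-derived gene of the same cluster, had 4, 6 and 2 reads in the knockout and 1, 2 and 0 in wildtype. Well-expressed genes of chromosome 14 outside the list were lower in the knockout, with a median log2 difference of -0.18 over 351 genes. That median is relative to such genes on all chromosomes. The 10 neighbours of DLK1 outside the list had a median log2 fold change of -0.18. Among them WDR20, a WD-repeat protein gene, was called lower (-0.59, SE 0.11). With chromosome medians removed DLK1 had a log2 fold change of 1.25 (adjusted p by edgeR = 0.178).

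**Figure D2:**
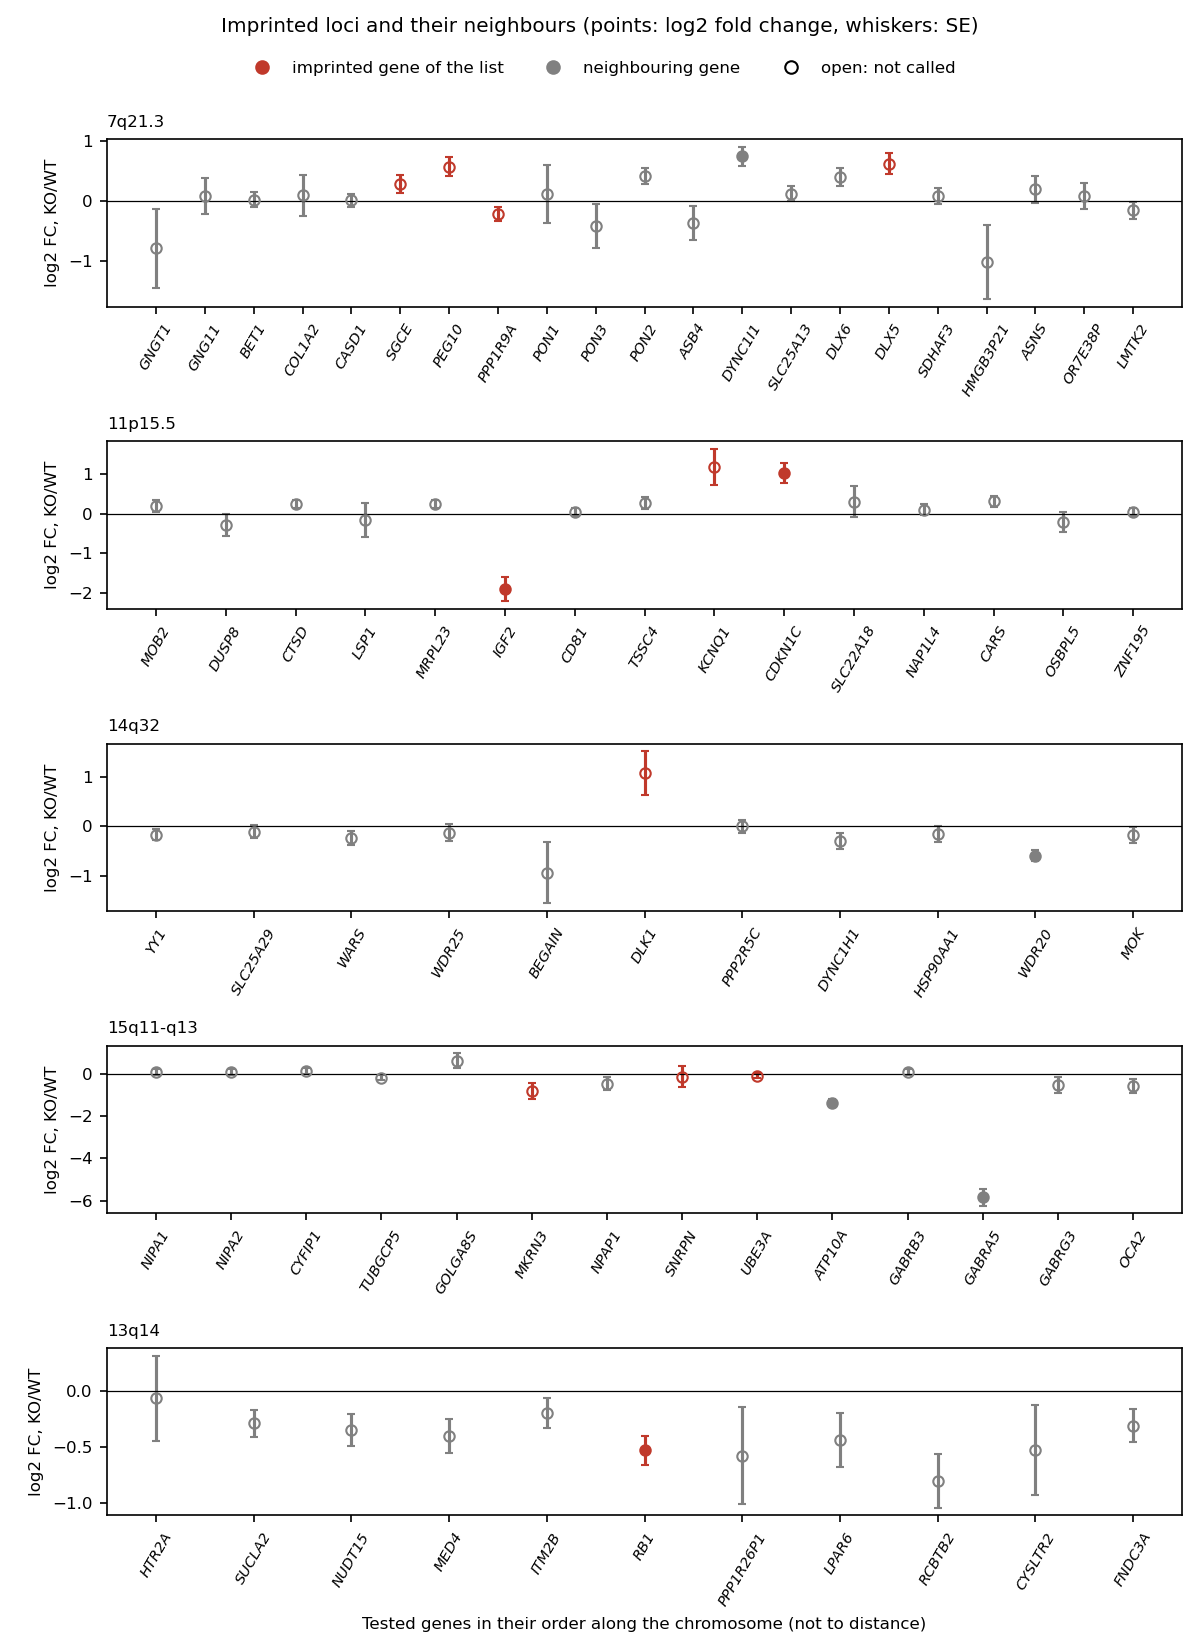
Log2 fold change (knockout over wildtype, whiskers SE) of tested genes in their order along 5 imprinted regions, with list members in red, neighbours in grey and called genes filled. IGF2 (-1.91) and CDKN1C (1.03) leave a band of neighbours between -0.29 and 0.31 at 11p15.5, whereas RB1 (-0.53) lies among neighbours that are all below 0.

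The 15q11-q13 region held genes at 0 beside genes that were read. NDN and MAGEL2, which encode MAGE family proteins and are lost in Prader-Willi syndrome, had no read in any library of either genotype. SNURF was also at 0, and SNRPN, the splicing protein gene that shares its transcript, had 6, 7 and 15 reads in the knockout and 12, 7 and 10 in wildtype (log2 fold change -0.13, SE 0.49, adjusted p by edgeR = 0.919). SNURF and SNRPN overlap, and the counting rule is not given, so reads in their common exons could have been left out. MKRN3, an intronless ring finger gene of the same paternal domain, was nevertheless read: it had 60, 43 and 81 reads in the knockout and 143, 57 and 104 in wildtype. In CPM it stood at 3.08, 1.64 and 2.95 in the knockout and 5.62, 2.12 and 5.57 in wildtype, with replicate 2 lowest in both genotypes and overlapping groups. Its log2 fold change was -0.79 (SE 0.38, adjusted p by edgeR = 0.324), and -0.89 without both libraries numbered 2 (adjusted p = 0.00164). UBE3A, the ubiquitin ligase gene that is maternal in neurons and read from both chromosomes elsewhere, had 252 ± 24.1 CPM in the knockout and 267 ± 7.06 CPM in wildtype (SD, n = 3 each), with a log2 fold change of -0.09 (SE 0.12, adjusted p by edgeR = 0.77). Of the 10 tested neighbours of UBE3A outside the list 2 fell, ATP10A and GABRA5, and their median log2 fold change was -0.32. GABRA5, a GABA receptor subunit gene, had 4, 2 and 6 reads in the knockout, against 222, 359 and 136 reads in wildtype (log2 fold change -5.85, SE 0.39, adjusted p by edgeR = 6.68e-06).

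To set paternal genes with and without reads beside each other, the RefSeq promoter windows of MKRN3 and NAP1L5, which were read, and of NDN and SNURF, which were listed at 0, are given on GRCh38.p14 from 250 bases before to 50 after the start, 5′ to 3′ on the strand of the gene, with every CG dinucleotide, the site of DNA methylation, in capitals. The SNURF window is also a listed window of SNRPN, which had reads.
MKRN3 (chr15:23565424-23565723, + strand): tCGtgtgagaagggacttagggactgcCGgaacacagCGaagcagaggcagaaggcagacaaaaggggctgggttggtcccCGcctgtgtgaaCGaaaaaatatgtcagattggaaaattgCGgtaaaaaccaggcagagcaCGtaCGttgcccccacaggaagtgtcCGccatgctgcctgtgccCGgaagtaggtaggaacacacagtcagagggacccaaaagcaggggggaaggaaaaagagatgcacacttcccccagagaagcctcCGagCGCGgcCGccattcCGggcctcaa
NAP1L5 (chr4:88697780-88698079, - strand): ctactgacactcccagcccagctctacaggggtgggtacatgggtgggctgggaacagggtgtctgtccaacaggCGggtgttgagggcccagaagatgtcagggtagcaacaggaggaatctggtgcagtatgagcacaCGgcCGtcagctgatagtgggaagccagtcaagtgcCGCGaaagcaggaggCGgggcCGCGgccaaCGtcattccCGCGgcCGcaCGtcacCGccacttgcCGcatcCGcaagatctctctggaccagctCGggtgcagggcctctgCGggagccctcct
NDN (chr15:23687256-23687555, - strand): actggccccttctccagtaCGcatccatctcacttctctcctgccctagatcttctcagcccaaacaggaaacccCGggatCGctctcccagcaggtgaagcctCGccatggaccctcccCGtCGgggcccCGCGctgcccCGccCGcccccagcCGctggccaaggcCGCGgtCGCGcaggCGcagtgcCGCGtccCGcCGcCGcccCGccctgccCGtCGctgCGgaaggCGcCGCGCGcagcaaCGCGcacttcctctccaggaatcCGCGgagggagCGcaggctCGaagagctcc
SNURF (chr15:24954737-24955036, + strand): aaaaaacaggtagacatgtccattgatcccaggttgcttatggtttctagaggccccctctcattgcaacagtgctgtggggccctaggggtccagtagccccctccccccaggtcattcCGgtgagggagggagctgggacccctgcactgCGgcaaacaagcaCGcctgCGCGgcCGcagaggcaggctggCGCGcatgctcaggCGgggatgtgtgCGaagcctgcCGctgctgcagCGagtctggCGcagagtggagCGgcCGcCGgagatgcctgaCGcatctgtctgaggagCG
The 4 windows held 15 CG sites in MKRN3, 18 in NAP1L5, 35 in NDN and 18 in SNURF, against a median of 14 over all 35116 promoter windows of the table. NDN, with no read, was the densest of the 4, and at least as many sites as in NDN were found in 14.1% of all windows. Windows not shown differed from this: MAGEL2, also without a read, held 9 CG sites, and the windows of ZDBF2, which was read, held 18 and 50. The 4 windows are examples, and a link between CG sites and reads was not tested. SNURF and NAP1L5 held equal numbers, and at least as many were found in 44.5% of all windows. The hexamer TGCCGC, known as the core of the sites that the imprint-keeping protein ZFP57 binds when methylated, was searched on both strands. It occurred 0 times in MKRN3, 2 times in NAP1L5, 1 time in NDN and 2 times in SNURF. It was present in 23 of the 53 windows listed for 23 of the 36 imprinted genes, H19, MEG3 and HYMAI among them (43.4%), and in 16.7% of all windows. Some of the 53 windows overlap, and HYMAI shares a whole window with PLAGL1, as SNURF does with SNRPN. These shared windows hold the hexamer and were counted for both genes, so the 43.4% counts the same sequence more than once. The imprinted genes' windows also held more CG, with a median of 18. ZFP57 itself had no read in any library.

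RB1, the retinoblastoma tumour suppressor gene, whose imprint gives a bias towards the maternal chromosome, fell. It had 96.7, 114 and 97.9 CPM in the knockout, against 139, 170 and 136 CPM in wildtype, and the groups did not overlap. The log2 fold change was -0.53 (SE 0.13, adjusted p by edgeR = 0.0401). RB1 lies on chromosome 13, where 183 well-expressed genes outside the list had a median log2 difference of -0.34, relative to such genes on all chromosomes. All 10 neighbours of RB1 had negative log2 fold changes, from -0.80 to -0.07, none of them called (edgeR, 4 with an unadjusted p under 0.05). With chromosome medians removed the log2 fold change of RB1 was -0.19 (adjusted p by edgeR = 0.54). With a log2 fold change close to the full one, the call was lost without knockout replicate 1 (-0.47, adjusted p = 0.219), 2 (-0.60, 0.0579) or 3 (-0.49, 0.228), without wildtype replicate 1 (-0.57, 0.087), and with DESeq2 size factors (-0.51, 0.0596).

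Paternally expressed genes elsewhere were read at moderate levels. ZDBF2, a zinc finger gene on chromosome 2, had 116, 132 and 116 CPM in the knockout, against 81.3, 100 and 80.2 CPM in wildtype. Every knockout library was above every wildtype library, and the log2 fold change of 0.48 (SE 0.12, adjusted p by edgeR = 0.0513) lay just outside the threshold. ZDBF2 passed in 8 of the 17 alternatives, for example without both libraries numbered 2 (0.52, adjusted p = 8.94e-06), upper-quartile scaling (0.0201), library size only (0.0144) and the DESeq2 Wald test (0.0142). Among its 10 tested neighbours 1 fell, FASTKD2, which encodes a mitochondrial RNA-binding protein and had 5, 4 and 10 reads in the knockout, against 882, 662 and 748 reads in wildtype (log2 fold change -6.96, SE 0.30, adjusted p by edgeR = 1.33e-07). NAP1L5, a histone chaperone family gene that lies in an intron of HERC3, had 25.2, 26.0 and 27.0 CPM in the knockout and 19.3, 25.8 and 17.8 CPM in wildtype. Only wildtype replicate 2 overlapped (log2 fold change 0.31, SE 0.15, adjusted p by edgeR = 0.315, and 0.00151 without both libraries numbered 2). Of its 10 tested neighbours 1 rose, the ISG15 ligase gene HERC5 (0.60, SE 0.13, adjusted p by edgeR = 0.0253). L3MBTL1, a chromatin compaction gene, stood at 3.56 ± 0.243 CPM in the knockout and 3.34 ± 0.856 CPM in wildtype (SD, n = 3 each). The log2 fold change of L3MBTL1 was 0.10 (SE 0.25, adjusted p by edgeR = 0.875).

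The remaining paternal genes were close to the detection limit. NNAT, a brain proteolipid gene nested in BLCAP, had 18, 29 and 24 reads in the knockout and 30, 32 and 23 in wildtype. In CPM that was 0.923, 1.11 and 0.875 in the knockout and 1.18, 1.19 and 1.23 in wildtype, just without overlap (log2 fold change -0.30, SE 0.31). PLAGL1, a zinc finger growth suppressor gene, had 15, 20 and 12 reads in the knockout and 26, 14 and 19 in wildtype (-0.37, SE 0.42). DIRAS3, a Ras-related tumour suppressor gene, had 5, 8 and 10 reads in the knockout and 14, 5 and 4 in wildtype. PEG3, a zinc finger gene, and ZIM2, which shares its first exons, had no read in any library. For NNAT and PLAGL1, edgeR's adjusted p was 0.675 and 0.70, and DIRAS3 was below the expression filter.

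Genes with isoform-dependent, variable or reported imprinting made up most of the rest. GNAS, the stimulatory G protein alpha subunit gene with several imprinted starts, came next after PEG10 per kilobase, at 138 RPKM in the knockout and 129 RPKM in wildtype, with 540, 527 and 599 CPM in the knockout and 511, 554 and 495 CPM in wildtype (log2 fold change 0.10, SE 0.13, adjusted p by edgeR = 0.762). IGF2R, the receptor that clears IGF2 from the cell surface, had 197, 181 and 149 CPM in the knockout and 213, 140 and 210 CPM in wildtype (-0.09, SE 0.17, adjusted p by edgeR = 0.825). BLCAP, a membrane protein gene lost in bladder cancer, had 26.2 ± 2.59 CPM in the knockout and 30.7 ± 4.43 CPM in wildtype (SD, n = 3 each; log2 fold change -0.23, SE 0.13, adjusted p by edgeR = 0.431). TP73, a relative of the tumour suppressor p53, had 6.11, 5.96 and 5.28 CPM in the knockout, against 9.24, 6.83 and 9.64 CPM in wildtype. It was lower in each knockout library, with a log2 fold change of -0.57 (SE 0.19, adjusted p by edgeR = 0.154) that was called without both libraries numbered 2 (-0.73, adjusted p = 0.00146).

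**Figure D3:**
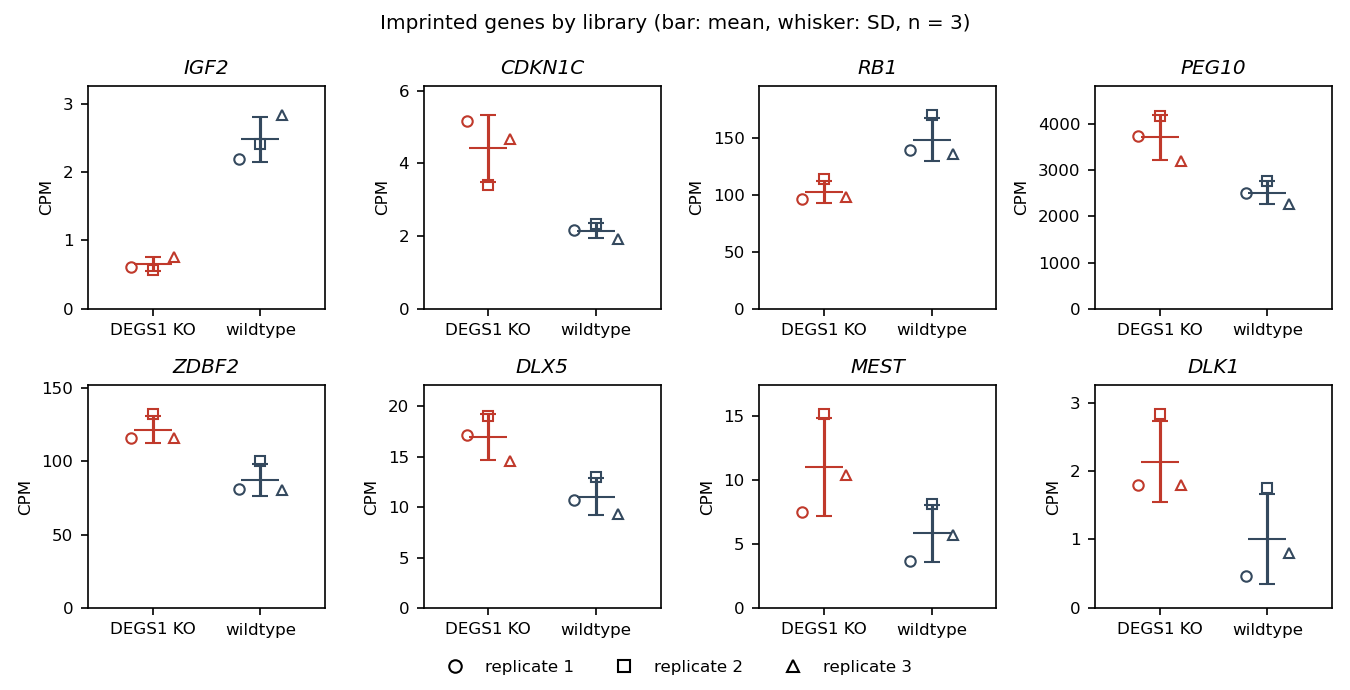
CPM of 8 imprinted genes in each library, DEGS1 knockout left and wildtype right, with the mean as a bar and the SD as whiskers (n = 3) and the replicate number as the symbol. IGF2, CDKN1C and RB1 were called, and replicate 2 (square) is the highest library of both genotypes in RB1, PEG10, ZDBF2, DLX5, MEST and DLK1.

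Over the list as a whole, 23 of the 31 genes with a row passed the expression filter, and 3 of these 23 were called, CDKN1C higher and IGF2 and RB1 lower. Over all 16954 genes tested 4.46% were called, 1.51% higher and 2.95% lower. The 3 called genes were 13% of the 23, a difference from the background that rests on few genes. An unadjusted p under 0.05 by edgeR was reached by 10 of the 23 (43.5%), against 16.5% of all tested genes. The libraries of the 2 genotypes did not overlap in 11 of the 23 (47.8%), 6 higher and 5 lower in the knockout, against 20.8% of all tested genes. The list was chosen with earlier results of these data known, and the part of that choice in these shares was not tested. The direction was mixed, with 12 positive and 11 negative log2 fold changes and a median of 0.02, beside a median of -0.02 over all tested genes. The 12 tested paternal genes had 7 positive and 5 negative values and a median of 0.19, and the 11 others a median of -0.09. The count rested on single libraries. Without wildtype replicate 2, 12 members were called and 22.1% of all genes, and without both libraries numbered 2, 14 members and 32.2% of all genes. Without knockout replicate 1, knockout replicate 3 or wildtype replicate 1 the call of IGF2 alone was left. In those fits 2.42%, 2.2% and 2.55% of all genes were called, in that order. With chromosome medians removed IGF2 was again the single call (3.93% of all genes).

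**Figure D4:**
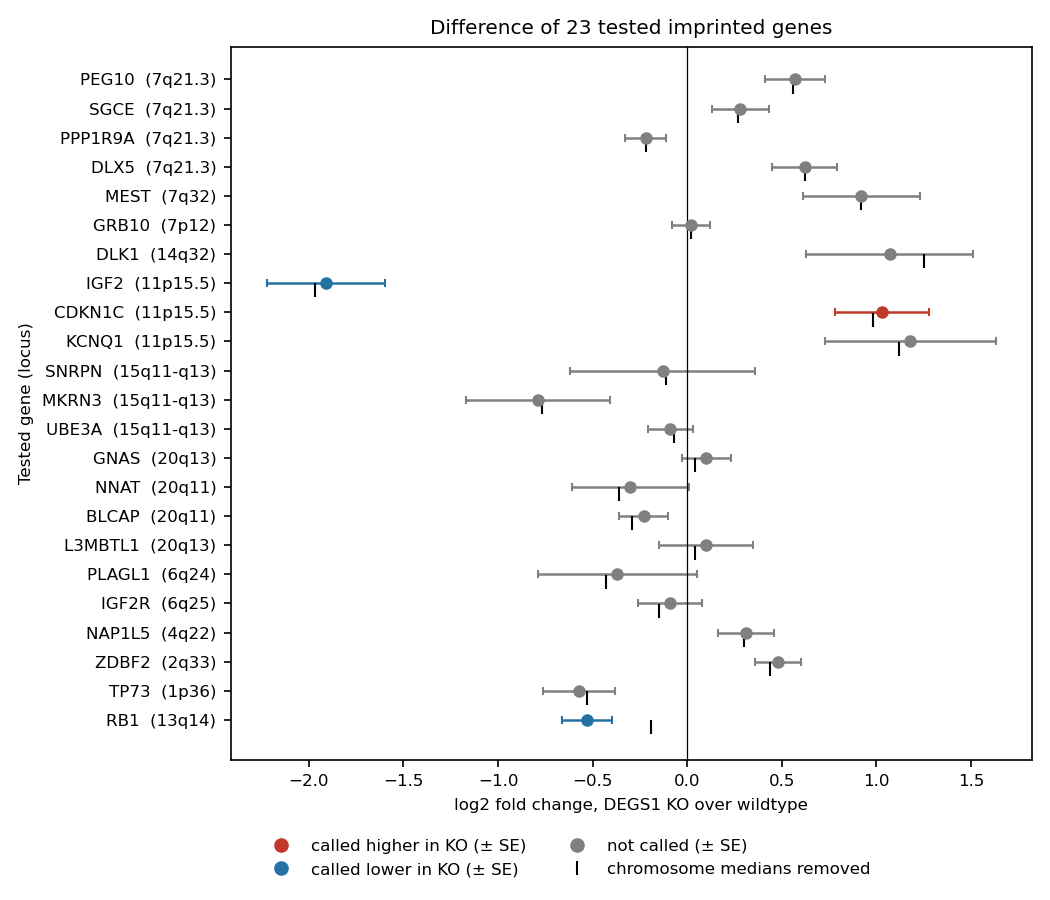
Log2 fold change, knockout over wildtype, with SE for the 23 tested imprinted genes, coloured where called, and a black mark for the value with chromosome medians removed. IGF2 lies farthest from 0 at -1.91, and the mark moves most for RB1, to -0.19.

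Other imprinted genes gave few calls. Of 58 further genes reported as imprinted, 42 had a row and 28 were tested; 1 rose and 1 fell, which is 7.14%, with a median log2 fold change of -0.04. ATP10A, a lipid flippase gene next to UBE3A whose maternal expression varies between people, had 14.7, 9.21 and 14.2 CPM in the knockout, against 33.2, 26.6 and 37.7 CPM in wildtype, and fell by 1.36 on the log2 scale (SE 0.19, adjusted p by edgeR = 0.00137). INPP5F, a phosphoinositide phosphatase gene with a paternally expressed isoform, had 48.8, 41.6 and 52.4 CPM in the knockout, against 32, 32.3 and 31.9 CPM in wildtype, and rose by 0.57 (SE 0.11, adjusted p by edgeR = 0.0137). ATP10A was called in each setting tried, whereas INPP5F was not called with library size only or without knockout replicate 1, knockout replicate 3 or wildtype replicate 1. Without both libraries numbered 2, 7 of 29 tested genes of this list were called (24.1%, against 32.2% of all genes), and 6 of 29 without wildtype replicate 2 (20.7%, against 22.1% of all genes).

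Of 34 genes for proteins that set, keep or read imprints, 27 were tested and 1 was called (3.7%), DNMT3L, a cofactor of de novo DNA methylation in germ cells. DNMT3L had 0, 0 and 1 reads in knockout libraries, against 31, 19 and 18 reads in wildtype libraries. From summed counts its wildtype level was 70.0 times that of the knockout (95% exact binomial interval 12.1 to 2800, counting error only; adjusted p by edgeR = 0.000871). Genes that keep imprints through cell division were not called: DNMT1, the maintenance methyltransferase, averaged 214 CPM in the knockout and 228 CPM in wildtype (log2 fold change -0.09, SE 0.12, adjusted p by edgeR = 0.753), UHRF1, which guides it, had 214 CPM in each, and TRIM28, the corepressor that ZFP57 and ZNF445 recruit, had 386 CPM in the knockout and 369 CPM in wildtype. ZNF445 itself averaged 91.6 CPM in the knockout and 101 CPM in wildtype (-0.14, SE 0.12, adjusted p by edgeR = 0.62), and was called without both libraries numbered 2 (-0.21, adjusted p = 0.0357). Next after DNMT3L came HELLS, a chromatin remodeller needed for DNA methylation, with 170 ± 26.3 CPM in the knockout and 252 ± 31.6 CPM in wildtype (SD, n = 3 each; log2 fold change -0.56, SE 0.15, adjusted p by edgeR = 0.0557). HELLS was called without both libraries numbered 2 (-0.78, adjusted p = 3.19e-07), without wildtype replicate 2 (0.00276), in the DESeq2 Wald test (0.00909), with no filter (0.0278) and with chromosome medians removed (0.0393). Without both libraries numbered 2, 9 of 27 regulators were called (33.3%, against 32.2% of all genes), and 4 of 27 without wildtype replicate 2 (14.8%, against 22.1% of all genes). Of the 9, 1 was higher and 8 were lower, while the calls over all genes were 2726 higher and 2771 lower. In the main fit 13 of the 27 regulators had positive and 14 had negative log2 fold changes.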

How the data were processed

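The authors deposited raw read counts for each gene symbol, in whole numbers and without normalization. Per the labels' protocols, libraries were made from 1 ug of RNA with a kit that keeps the strand, and read as single 75 nt reads. bcl2fastq 2.20 and the build hg19 are named, per the submitters' processing notes. For aligner, counter, annotation and strand setting, nothing is given in the sources used here; overlapping and antisense genes could have been split or merged.

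The test used R 4.3.3 and edgeR 4.0.16: scaling by the trimmed mean of M values, edgeR's expression filter by genotype, and the quasi-likelihood F test with robust dispersion on genotype alone, adjusted by Benjamini-Hochberg over all tested genes. The common biological coefficient of variation was 16.4%. Each SE was obtained by dividing the size of the log2 fold change by the root of F. RPKM divides CPM by the longest GENCODE release 29 transcript. Chromosome medians were taken over well-expressed genes outside the list, relative to the median of all such genes with a chromosome. Chromosomes and gene order came from RefSeq on GRCh38.p14, matched for 77.5% of symbols; promoter windows came from its sequence table, which held 23 of the 36 genes. Intervals and floors from counts take in counting error alone. No 2 libraries agreed within sampling noise (chi-square per degree of freedom 12.8 to 53.0).

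Counts were simulated with the gene levels, spread and library sizes of this comparison. Each gene was drawn independently, so the shared pattern of the libraries numbered 2 was not simulated. In these counts the test recovered 29.1% of 55 genes altered 1.5-fold, 70.7% of 75 altered 2-fold and 82.9% of 70 altered 4-fold. There were 13 false calls among 16664 tested. Alternatives were DESeq2 1.42.0 size factors and Wald test, upper-quartile scaling, library size only, limma 3.58.1 voom, other filters, each library left out, a block for the replicate number, the 10 most abundant genes left out, chromosome medians removed and a threshold of 0.01. The members and lists were chosen with earlier results of these data known. Every list member is named; called genes of the other lists and among neighbours are named with DEGS1. HELLS, ZNF445, TRIM28, DNMT1, UHRF1 and ZFP57 were named after their values were seen.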

Additional observations from a re-analysis of the deposited data

How the results depend on the processing

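The count of all genes called moved to 375 at a threshold of 0.01, ran from 380 to 3825 with 1 library left out, and was 5497 without both libraries numbered 2. The 3 called imprinted genes became 7 in the DESeq2 Wald test, where 5.89% of all genes were called. They became 5 with no filter (3.95% of all genes) and 1 with chromosome medians removed (3.93%). At a threshold of 0.01 the count was 1. It ran from 1 to 12 with 1 library left out (2.2% to 22.1% of all genes). Without both libraries numbered 2 it was 14 (32.2%). With the replicate number as a block (replicate block) the count was 7, beside 6.38% of all genes. The block added MEST (adjusted p by edgeR = 0.00492), DLX5 (0.0147), PEG10 (0.0282) and ZDBF2 (0.0113). Descriptions share a suffix per number, but its meaning is not given and the data did not show pairing throughout: same-numbered libraries deviated from their genotype means with correlations of 0.22, 0.31 and -0.13, and of the knockout libraries replicate 2 alone correlated best with its own number. The 2 other imprinted genes called became 1 with library size only, where 3.92% of all genes were called. Beside the shares of all genes given above, they became 4 with no filter and 1 to 6 with 1 library left out. They became 7 without both libraries numbered 2, and 1 at a threshold of 0.01. The 1 imprint regulator called became 2 in the DESeq2 Wald test, 2 with no filter and 2 with chromosome medians removed. The count ran from 1 to 4 with 1 library left out, and was 9 without both libraries numbered 2. The shares of all genes in these settings are those given above. No regulator was called under a filter of 1 CPM in 3 libraries, where 4.82% of all genes were called. That filter leaves DNMT3L untested, and 3 regulators had an unadjusted p under 0.05 in edgeR. Signs turned for 4 uncalled genes near 0: GRB10 (0.00 under upper-quartile scaling, -0.03 with library size only), SNRPN (0.07 without knockout replicate 2, 0.06 without wildtype replicate 3, range -0.53 to 0.07 with 1 library left out), L3MBTL1 (-0.06 without wildtype replicate 2, 0.00 without both libraries numbered 2, range -0.06 to 0.30) and IGF2R (0.02 without knockout replicate 3, 0.01 without wildtype replicate 1, range -0.26 to 0.02). Apart from these constructions, the cause was not tested. With the 10 most abundant genes left out PEG10, which is among them, gives no value. At 3 libraries a side, the simulation, which held no shared replicate pattern, recovered most 4-fold but few 1.5-fold changes. Genes under about 1 CPM rest on few reads.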
